A study of Homo sapiens with 12 samples.

Results

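The 36 genes described here are well-known transcriptional targets of the tumour suppressor p53. They were picked by name, with earlier results of these data known, from the 58735 genes that the deposited count table lists. The other gene lists below were also chosen with those results known. Expression was measured by bulk RNA sequencing in LX-2, a human cell line of hepatic stellate origin that serves in the study of fibrosis. There were 4 groups with 3 libraries each. SiNAT10_TGFB cells were transfected with siRNA against NAT10 and given 5 ng/ml TGF-β1 48 h later, for 24 h. SiNAT10 cells received the same siRNA and no TGF-β1, and the sources used here do not give the time of their harvest. TGFB cells received 5 ng/ml TGF-β1 for 24 h and no siRNA, and con cells received neither. All groups carry the wild-type genotype label. NAT10 encodes the RNA cytidine acetyltransferase of the nucleolus, and TGF-β1 is the main cytokine that activates stellate cells. No group with a control siRNA is labelled, so transfection and NAT10 knockdown cannot be told apart. The labels speak of biological replicates without naming separate cultures, so each p-value measures only how far the samples of a group spread, which may be technical.

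p53 is a transcription factor that is held at low levels by the ubiquitin ligase MDM2 and stabilised by DNA damage, ribosomal stress and other insults. It binds DNA at paired copies of a short motif and switches on genes for cell cycle arrest, apoptosis, DNA repair and metabolism, among them MDM2 itself, which closes a feedback loop. In stellate cells, p53 and its target p21 are known for their part in senescence.

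Of the 36 genes, 35 had enough counts to be tested beside 18560 genes in all. TNFRSF10C, a decoy receptor, was not tested, with 3, 1 and 0 counts in the SiNAT10_TGFB libraries, 0, 2 and 0 in SiNAT10, 0, 2 and 4 in TGFB, and 0, 0 and 6 in con. SPATA18 passed the count filter only through the siRNA libraries. Total counts ran from 25877008 to 28311434 in the siRNA libraries and from 29797990 to 35132582 in the others. The part of this depth gap in the results was not tested. NAT10 itself was at 19.5, 18.5 and 17.9 CPM (counts scaled to library size with TMM factors) in SiNAT10 and at 62.9, 68.8 and 69.9 CPM in con, which is -1.85 on the log2 scale (SE 0.087, adjusted p = 5.1e-14), and the difference of SiNAT10_TGFB over TGFB was also -1.85. Among 14 stellate cell markers, COL1A1 and VIM were abundant, LRAT was at 0 in all libraries and DES was near 0. The summed level of those markers was 603 to 629 FPKM (a count per gene length and depth) in SiNAT10_TGFB and 454 to 486 in SiNAT10. It was 1320 to 1400 in TGFB and 724 to 753 in con. The markers behind these sums did not move together. Mean COL1A1 was at 89.6 FPKM in SiNAT10 and 309 in con, whereas mean TIMP1 was at 189 FPKM in SiNAT10 and 109 in con. Markers of hepatocytes summed to at most 5.81 FPKM in any library, and those of leukocytes to at most 2.62. In bulk samples, fewer cells of a type and less RNA per cell cannot be told apart.

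Promoter sequence was examined for the decamer that p53 binds, in RefSeq windows on GRCh38.p14 that run from 250 bases before to 50 bases after a gene's start. Windows were found for 29 of the 36 genes, 45 windows in all. The 10-base p53 decamer consensus was searched by its standard definition. Its pattern is its own reverse complement, so a match counts for both strands. It was present for 7 of the 29 genes (24.14%) and for 2202 of 27305 genes of the whole table (8.06%). Paired decamers with at most 13 bases between them were present for DDB2 alone among the 29, and for 10 of the 27305 genes (0.037%). Such a match is a description of these letters and not a measured binding site.

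The windows of DDB2, with the paired match, and of FAS, with a single one, are printed with the decamers in capitals. They are shown with the windows of CDKN1A and GDF15, which had large siRNA differences and hold no match. DDB2 and the shorter stretches that follow were chosen after the values had been seen.
DDB2, chr11:47214724-47215023 (+): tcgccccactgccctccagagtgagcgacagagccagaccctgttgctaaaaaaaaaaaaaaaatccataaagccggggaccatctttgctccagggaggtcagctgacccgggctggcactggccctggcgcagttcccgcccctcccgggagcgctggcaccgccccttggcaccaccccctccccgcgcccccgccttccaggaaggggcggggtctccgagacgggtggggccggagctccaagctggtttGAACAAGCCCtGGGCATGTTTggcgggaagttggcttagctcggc
FAS, chr10:88991181-88991480 (+): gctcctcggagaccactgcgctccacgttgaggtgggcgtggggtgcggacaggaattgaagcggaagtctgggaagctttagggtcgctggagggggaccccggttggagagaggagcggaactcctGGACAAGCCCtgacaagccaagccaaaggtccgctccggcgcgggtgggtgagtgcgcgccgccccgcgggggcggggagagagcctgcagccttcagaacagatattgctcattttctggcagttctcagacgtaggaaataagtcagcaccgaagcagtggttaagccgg
CDKN1A, chr6:36678464-36678763 (+): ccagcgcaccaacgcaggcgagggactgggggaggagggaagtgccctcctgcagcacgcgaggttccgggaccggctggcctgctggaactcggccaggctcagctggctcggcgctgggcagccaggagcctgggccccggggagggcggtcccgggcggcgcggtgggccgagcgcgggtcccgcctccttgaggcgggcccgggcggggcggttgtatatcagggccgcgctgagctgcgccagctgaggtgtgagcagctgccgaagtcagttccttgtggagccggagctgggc
GDF15, chr19:18385908-18386207 (+): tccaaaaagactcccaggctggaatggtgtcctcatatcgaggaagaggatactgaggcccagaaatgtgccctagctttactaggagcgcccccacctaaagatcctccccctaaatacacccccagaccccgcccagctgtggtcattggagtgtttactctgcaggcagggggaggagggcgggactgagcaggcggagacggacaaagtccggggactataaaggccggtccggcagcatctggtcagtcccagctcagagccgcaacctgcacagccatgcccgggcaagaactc
The 5 other genes with a decamer are shown by 30 bases around it, also in capitals and read on the strand of the gene.
AEN, chr15:88621296-88621325 (+): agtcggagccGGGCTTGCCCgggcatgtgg
FDXR, chr17:74872986-74873015 (-): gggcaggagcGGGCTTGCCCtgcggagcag
PLK2, chr5:58460199-58460228 (-): tggcgggacaAGACTTGCTTcccggccacg
RPS27L, chr15:63157517-63157546 (-): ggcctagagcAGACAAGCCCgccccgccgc
SESN1, chr6:109009018-109009047 (-): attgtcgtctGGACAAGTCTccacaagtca
The genes with a decamer in the window did not move one way. With siRNA and no TGF-β1, FAS, AEN, RPS27L and SESN1 rose, while DDB2, FDXR and PLK2 fell. Of all tested genes, 26.4% rose and 26.4% fell in that comparison. The falls of DDB2 and FDXR did not hold under every alternative described below. For the absence of a decamer at CDKN1A and GDF15 the window says only that these letters are not in it.

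Levels of different genes were compared per transcript length, in FPKM averaged over the con libraries. GADD45A and PLK2 stood highest, at 158 and 153 FPKM, followed by BAX at 44.2, PMAIP1 at 42.0, TNFRSF10B at 36.8, CCNG1 at 36 and CDKN1A at 24.0 FPKM. The lowest were GDF15 at 0.213 FPKM, TNFRSF10C at 0.0333 and SPATA18 at 0.0326. In SiNAT10 the mean level of PMAIP1 was 106 FPKM, of CDKN1A 81.7 FPKM and of GDF15 3.49 FPKM. MDM2 ranked 23rd of 36 in con, with a level of 3.99 FPKM there and 7.33 FPKM in SiNAT10. Its length was taken as 13284 bases, which bears on that rank.

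Most of the p53 target genes rose with NAT10 siRNA, whether or not TGF-β1 was given. In SiNAT10 against con, 26 of 34 tested genes rose and 6 fell, with SPATA18 left out for its passage through the siRNA libraries only. With SPATA18 counted, 27 of the 35 rose (77.1%) and 6 fell (17.1%). Of all 18560 tested genes, 26.4% rose and 26.4% fell. A gene is said to rise or fall at an adjusted p under 0.05 in the quasi-likelihood test of edgeR, adjusted after Benjamini and Hochberg over all tested genes. In SiNAT10_TGFB against TGFB, 25 of the 35 rose (71.4%) and 7 fell (20%), where 26.3% of all tested genes rose and 26.8% fell. The median log2 fold change of the 35 genes was 0.67 without TGF-β1 and 0.66 with it, against 0.02 and 0.01 over all tested genes. In each comparison 8 genes rose and 1 fell by 1 or more on the log2 scale, SPATA18 being 1 of the 8 without TGF-β1. Of all tested genes, 7.25% rose and 8.25% fell by that much without TGF-β1, and 7.16% and 9.05% with it.

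These 2 comparisons share no library. Both placed 25 of the 35 genes higher (71.4%) and 6 lower (17.1%), and no gene changed in opposite directions. Among all tested genes, 3801 rose in both (20.5%), 3923 fell in both (21.1%) and 72 went opposite ways (0.388%). Without SPATA18, 26 of 34 genes rose and 6 fell in SiNAT10 against con, and 25 and 7 in SiNAT10_TGFB against TGFB. The median log2 fold changes of those 34 genes were 0.67 and 0.63.

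**Figure D1:**
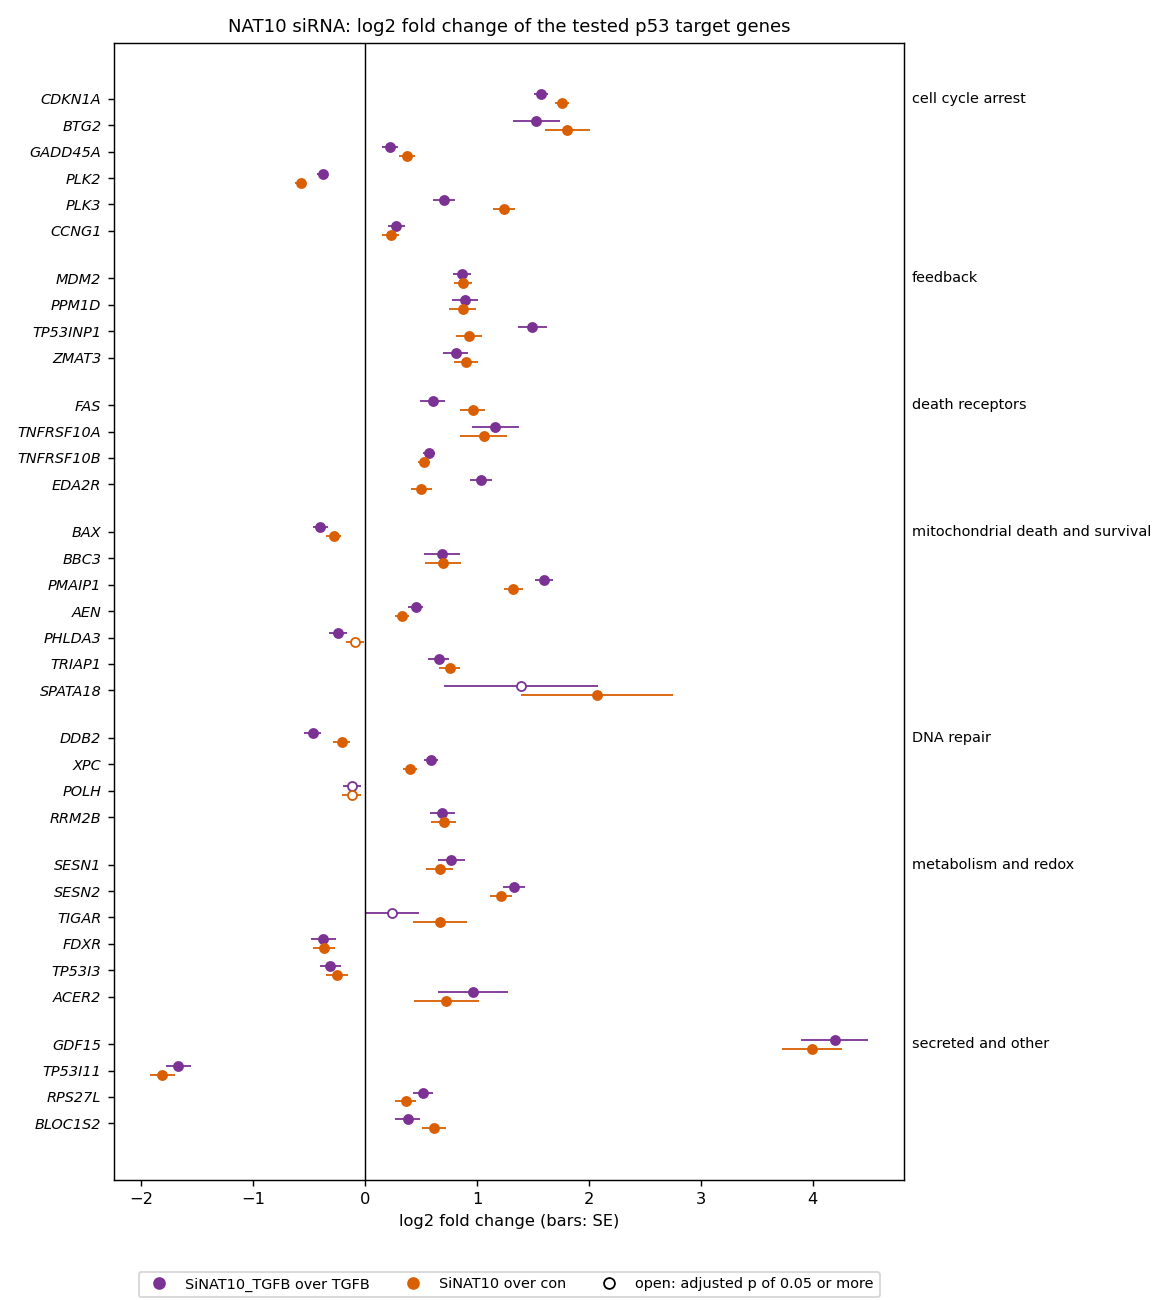
Log2 fold changes of the 35 tested p53 target genes with NAT10 siRNA (x axis, points with SE bars), ordered by role from top to bottom, for SiNAT10_TGFB over TGFB and SiNAT10 over con, 3 libraries per group. Most points lie right of 0, GDF15 lies farthest right at 4.2 and 3.99, and TP53I11 farthest left at -1.67 and -1.81. Open points did not pass an adjusted p of 0.05. SPATA18 is plotted although it passed the count filter only through the siRNA libraries.

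Of the 6 genes for cell cycle arrest, 5 rose and PLK2 fell in both siRNA comparisons. Beside this and the role counts that follow, 26.4% of all tested genes rose and 26.4% fell without TGF-β1, and 26.3% and 26.8% with it. The roles hold only 4 to 7 tested genes each, and no role was tested against those shares. CDKN1A (ENSG00000124762; hg38 chromosome 6, 36676460 to 36687339) encodes p21, the inhibitor of cyclin-dependent kinases through which p53 arrests the cell cycle. It was at 250, 252 and 246 CPM in SiNAT10 and at 73, 70.3 and 77 CPM in con. Under TGF-β1 it was at 236, 249 and 229 CPM in SiNAT10_TGFB and at 84.4, 74.6 and 81.6 CPM in TGFB. Every siRNA library stood far above every library without siRNA, so the groups did not overlap. CDKN1A rose 3.39-fold without TGF-β1 (log2 1.76, SE 0.062, adjusted p = 4.1e-16) and 2.97-fold with it (log2 1.57, SE 0.062, adjusted p = 1.5e-15). An antisense gene overlaps 4.79% of its exon bases.

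BTG2 (ENSG00000159388; chromosome 1, 203305491 to 203309602) encodes an antiproliferative regulator of mRNA decay. Its levels were 8.06, 10.2 and 11.9 CPM in SiNAT10 and 3.14, 2.47 and 3.00 CPM in con, and 7.84, 5.03 and 9.13 CPM in SiNAT10_TGFB against 2.07, 2.67 and 2.90 CPM in TGFB. The siRNA libraries varied more than the others but none came down to their range. The rise was 1.81 on the log2 scale without TGF-β1 (SE 0.20, adjusted p = 9.93e-08) and 1.53 with it (SE 0.21, adjusted p = 1.57e-06). PLK3 (ENSG00000173846; chromosome 1, 44800225 to 44805990), a stress-responsive polo-like kinase, was at 27.3, 25.1 and 23 CPM in SiNAT10 and at 9.27, 11.9 and 10.8 CPM in con. Together with TGF-β1 it was at 31.9, 32.2 and 30.5 CPM in SiNAT10_TGFB and at 20.1, 18.6 and 19.2 CPM in TGFB. Both pairs of groups were separate, with log2 fold changes of 1.24 (SE 0.10, adjusted p = 4.93e-10) and 0.71 (SE 0.097, adjusted p = 1.49e-06).

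GADD45A, a stress sensor that binds PCNA and p21, rose by 0.37 (log2, SE 0.073) to 424 ± 53.7 CPM in SiNAT10, against 327 ± 14.2 CPM in con (SD, n = 3). In SiNAT10_TGFB over TGFB its log2 fold change was 0.23 (SE 0.073, adjusted p = 0.012). That call was lost without TGFB replicate 3 (0.19) or SiNAT10_TGFB replicate 2 (0.20). CCNG1, cyclin G1, rose by 0.23 (log2, SE 0.077, adjusted p = 0.0167) without TGF-β1 and by 0.28 (SE 0.078, adjusted p = 0.00409) with it. Its first call was lost without con replicate 2 (0.19) or SiNAT10 replicate 3 (0.10). With the trend of counts with GC content (the percentage of G and C in a transcript) removed from every library, CCNG1 passed in neither comparison (-0.01 and 0.09, adjusted p = 0.906 and 0.162). PLK2 (ENSG00000145632; chromosome 5, 58453982 to 58460260), a polo-like kinase of the centrosome, went the other way. It was at 484, 485 and 503 CPM in SiNAT10, against 729, 731 and 734 CPM in con, and at 362, 391 and 388 CPM in SiNAT10_TGFB, against 491, 511 and 482 CPM in TGFB. All siRNA libraries lay below their counterparts, with log2 fold changes of -0.58 (SE 0.050, adjusted p = 1.47e-09) and -0.38 (SE 0.050, adjusted p = 9.32e-07).

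All 4 genes that feed back on p53 rose in both siRNA comparisons. MDM2 (ENSG00000135679; chromosome 12, 68808176 to 68850686), the ubiquitin ligase that degrades p53, was at 86.7, 99.3 and 106 CPM in SiNAT10 and at 58.5, 51.7 and 49.1 CPM in con. With TGF-β1 it was at 75.1, 74 and 74.9 CPM in SiNAT10_TGFB and at 40, 43.6 and 39.6 CPM in TGFB. No library with siRNA fell into the range of its counterpart group. Its log2 fold changes were 0.87 (SE 0.079, adjusted p = 2.83e-09) and 0.86 (SE 0.080, adjusted p = 4.2e-09). Other genes overlap 3.31% of its exon bases on the same strand and 6.91% on the opposite strand.

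TP53INP1 (ENSG00000164938; chromosome 8, 94925972 to 94949411), a nuclear stress protein that supports p53 activity, stood at 15.6, 16.9 and 21.1 CPM in SiNAT10 and at 8.89, 10.6 and 8.62 CPM in con. In SiNAT10_TGFB it was at 17.2, 16.4 and 16.4 CPM, against 5.68, 6.24 and 5.84 CPM in TGFB. The siRNA groups lay above their counterparts without overlap. The log2 fold change was 0.93 (SE 0.12, adjusted p = 8.92e-07) without TGF-β1 and 1.49 (SE 0.13, adjusted p = 9.12e-10) with it, and the difference of 0.57 between them did not pass (SE 0.18, adjusted p = 0.077). It passed without SiNAT10 replicate 3 (0.70, adjusted p = 0.0111). PPM1D, the WIP1 phosphatase that removes activating phosphates from p53, rose to 39.3 ± 5.41 CPM in SiNAT10, against 21.4 ± 3.9 CPM in con (SD, n = 3), a log2 fold change of 0.87 (SE 0.12), and by 0.89 with TGF-β1. ZMAT3, a zinc finger RNA-binding protein, rose by 0.90 (SE 0.11) and 0.81 (SE 0.11).

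The 4 tested death receptor genes rose in both siRNA comparisons. FAS (ENSG00000026103; chromosome 10, 88990582 to 89015785), the receptor of FAS ligand, was at 19.2, 22.2 and 20 CPM in SiNAT10 and at 11.6, 9.63 and 10.4 CPM in con. In SiNAT10_TGFB it was at 14.8, 13.7 and 16.3 CPM, and in TGFB at 9.08, 10.7 and 9.59 CPM. Neither pair of groups overlapped, with log2 fold changes of 0.96 (SE 0.11, adjusted p = 1.39e-07) and 0.60 (SE 0.11, adjusted p = 8.92e-05). An antisense gene overlaps 8.94% of its exon bases. TNFRSF10A (ENSG00000104689; chromosome 8, 23190452 to 23225126), TRAIL receptor 1, was scarce, at 5.80, 5.53 and 4.47 CPM in SiNAT10 and 2.61, 2.50 and 2.47 CPM in con. It was at 4.09, 3.65 and 5.65 CPM in SiNAT10_TGFB and at 2.50, 1.52 and 1.96 CPM in TGFB. Its siRNA libraries all exceeded the others, with log2 fold changes of 1.06 (SE 0.21, adjusted p = 0.000155) and 1.16 (SE 0.21, adjusted p = 7.47e-05). Antisense genes overlap 16.6% of its exon bases, and the sources used here do not give the strand setting of the counts.

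TNFRSF10B, TRAIL receptor 2 and far more abundant per length than TNFRSF10A, rose to 275 ± 8.32 CPM in SiNAT10, against 190 ± 3.68 CPM in con (SD, n = 3), a log2 fold change of 0.53 (SE 0.053). With TGF-β1 its log2 fold change was 0.57 (SE 0.053). EDA2R (ENSG00000131080; chromosome X, 66595637 to 66639298), the receptor of the ectodysplasin isoform EDA-A2, was at 32, 27.7 and 27.9 CPM in SiNAT10 and at 21.3, 20.9 and 19.7 CPM in con. Under TGF-β1 it was at 18.6, 16.9 and 16.8 CPM in SiNAT10_TGFB and at 8.58, 9.13 and 7.86 CPM in TGFB. The siRNA groups were higher without overlap, by 0.50 (log2, SE 0.094, adjusted p = 9.43e-05) and 1.03 (SE 0.10, adjusted p = 1.01e-08).

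**Figure D2:**
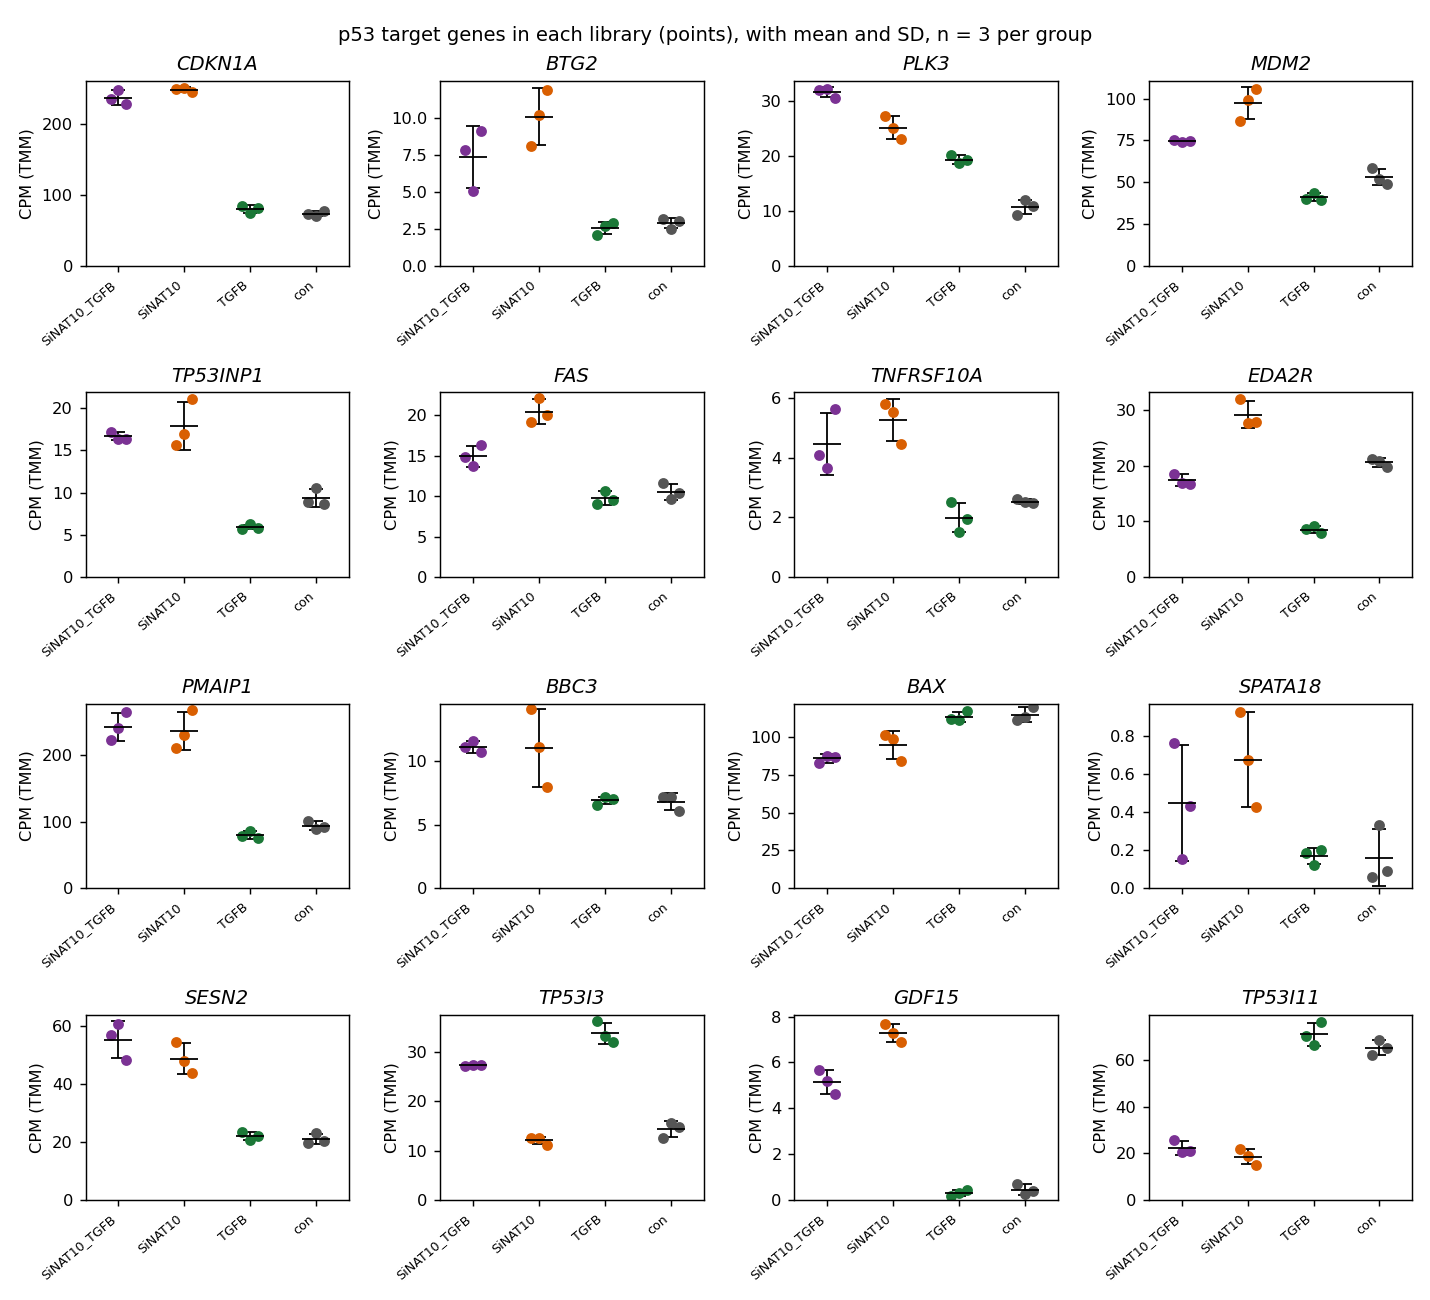
Levels of 16 p53 target genes in each library (y axes, TMM-scaled CPM, each from 0), in the order SiNAT10_TGFB, SiNAT10, TGFB and con; points are libraries, bars are mean and SD, n = 3 per group. CDKN1A lies at 229 CPM or more in every siRNA library and at 84.4 CPM or less in every other, while TP53I11 shows the opposite order and TP53I3 follows TGF-β1.

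Of the 7 genes of mitochondrial death and survival, 5 rose and 1 fell in SiNAT10 against con, and 4 rose and 2 fell in SiNAT10_TGFB against TGFB. Without SPATA18, BBC3, PMAIP1, AEN and TRIAP1 were the genes that rose in each. PMAIP1 (ENSG00000141682; chromosome 18, 59899948 to 59904306), the BH3-only protein NOXA that neutralises MCL1, was at 211, 230 and 267 CPM in SiNAT10 and at 101, 88.9 and 92.2 CPM in con. Together with TGF-β1 it was at 222, 241 and 264 CPM in SiNAT10_TGFB and at 78.4, 86.4 and 75.3 CPM in TGFB. No siRNA library was below 211 CPM and no other library was above 101 CPM. It rose 2.51-fold (log2 1.33, SE 0.083, adjusted p = 5.35e-12) and 3.03-fold (log2 1.60, SE 0.083, adjusted p = 1.97e-13). BBC3 (ENSG00000105327; chromosome 19, 47220822 to 47232766), the BH3-only protein PUMA, was at 14.1, 11.1 and 7.98 CPM in SiNAT10 and at 7.20, 7.20 and 6.09 CPM in con. In SiNAT10_TGFB it was at 11.1, 11.6 and 10.7 CPM, against 6.58, 7.18 and 6.99 CPM in TGFB. SiNAT10 spread widely, its lowest library just above con, and the log2 fold changes were 0.70 (SE 0.16, adjusted p = 0.000595) and 0.69 (SE 0.16, adjusted p = 0.000696).

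BAX (ENSG00000087088; chromosome 19, 48954815 to 48961798), the pore former that BH3-only proteins activate, was lower with siRNA. It was at 101, 98.4 and 84 CPM in SiNAT10 and at 111, 113 and 120 CPM in con, and at 82.5, 87.7 and 87 CPM in SiNAT10_TGFB, against 112, 111 and 117 CPM in TGFB. The groups did not overlap, with log2 fold changes of -0.28 (SE 0.068, adjusted p = 0.00134) and -0.40 (SE 0.068, adjusted p = 2.93e-05). With the library GC trends removed, the BAX values were 0.06 and -0.06 and neither passed (adjusted p = 0.313 and 0.384).

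AEN, an apoptosis-enhancing nuclease, rose by 0.33 and 0.45 (log2, SE 0.066 each), and TRIAP1, a mitochondrial lipid transfer protein that restrains apoptosis, rose by 0.76 (SE 0.094) and 0.66 (SE 0.093). PHLDA3, an inhibitor of AKT, did not pass without TGF-β1 (-0.09, adjusted p = 0.346) and fell by 0.24 with it (SE 0.080, adjusted p = 0.0131). That fall was lost without TGFB replicate 1 (-0.21), SiNAT10_TGFB replicate 1 (-0.22) or SiNAT10_TGFB replicate 2 (-0.23), and another gene overlaps 19.1% of the exon bases of PHLDA3 on the same strand. SPATA18 (ENSG00000163071; chromosome 4, 52051331 to 52097292), which encodes the mitochondrial quality control protein MIEAP, was near the detection limit. It had 27, 19 and 12 counts in SiNAT10 against 2, 10 and 3 in con, and 22, 4 and 12 in SiNAT10_TGFB against 6, 4 and 6 in TGFB. In CPM it was at 0.926, 0.678 and 0.43 in SiNAT10, 0.0581, 0.333 and 0.0937 in con, 0.763, 0.154 and 0.435 in SiNAT10_TGFB and 0.185, 0.124 and 0.203 in TGFB. SiNAT10 did not overlap con, whereas SiNAT10_TGFB overlapped TGFB. Since SPATA18 passed the count filter only through the siRNA libraries, where it was higher, its siRNA differences are given without a test. The fitted log2 fold change was 2.07 without TGF-β1, or 3.10 without con replicate 2, and 1.39 with TGF-β1.

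Among the 4 DNA repair genes, XPC and RRM2B rose and DDB2 fell in both siRNA comparisons, and POLH passed in neither. XPC, the damage sensor of nucleotide excision repair, was at 85.6 ± 2.66 CPM in SiNAT10 and 64.9 ± 2.85 CPM in con (SD, n = 3), a log2 fold change of 0.40 (SE 0.064), and it rose by 0.59 (SE 0.065) with TGF-β1. Antisense genes overlap 30.4% of its exon bases, so its counts are less certain. RRM2B, the p53-inducible small subunit of ribonucleotide reductase, rose by 0.70 (SE 0.11) and 0.69 (SE 0.11). DDB2 (ENSG00000134574; chromosome 11, 47214465 to 47239240), which recognises ultraviolet lesions ahead of XPC, carries the paired decamers printed above. It was at 25.7, 25.6 and 26.5 CPM in SiNAT10 and at 30.2, 30 and 29.7 CPM in con, and at 25.2, 25.5 and 28 CPM in SiNAT10_TGFB, against 37.9, 34.4 and 36.7 CPM in TGFB. The siRNA libraries lay below their counterparts, by log2 fold changes of -0.21 (SE 0.079, adjusted p = 0.0287) and -0.47 (SE 0.078, adjusted p = 2.32e-05). The first of these calls was lost without con replicate 1 (-0.21), 2 (-0.21) or 3 (-0.22), without SiNAT10 replicate 1 (-0.21) or 2 (-0.20), and with scaling to library size alone (-0.155). POLH, a translesion polymerase, stood at -0.12 in each comparison (adjusted p = 0.223 and 0.234) and fell in both once the GC trend was removed (-0.30 and -0.26).

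Of the 6 genes of metabolism and redox balance, 4 rose and 2 fell in SiNAT10 against con, and 3 rose and 2 fell in SiNAT10_TGFB against TGFB. SESN2 (ENSG00000130766; chromosome 1, 28259527 to 28282491), a stress-induced inhibitor of mTORC1, was at 54.4, 47.8 and 43.7 CPM in SiNAT10 and at 19.5, 22.9 and 20.4 CPM in con. In SiNAT10_TGFB it was at 56.9, 60.6 and 48.2 CPM, against 23.5, 20.6 and 21.9 CPM in TGFB. The siRNA libraries were far above the others, with log2 fold changes of 1.22 (SE 0.099, adjusted p = 4.55e-10) and 1.33 (SE 0.099, adjusted p = 8.89e-11). SESN1, its paralogue, rose by 0.67 (SE 0.12) and 0.77 (SE 0.12). ACER2, an alkaline ceramidase of the Golgi, was scarce and rose to 2.04 ± 0.309 CPM in SiNAT10, against 1.24 ± 0.0581 CPM in con (SD, n = 3; log2 0.73, SE 0.29, adjusted p = 0.0376). Its log2 fold change with TGF-β1 was 0.97 (SE 0.31, adjusted p = 0.0108). The first ACER2 call was lost without con replicate 1 (0.71), 2 (0.76) or 3 (0.69), or SiNAT10 replicate 1 (0.70) or 3 (0.62), and the second without TGFB replicate 1 (0.72).

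TIGAR, a phosphatase that lowers glycolytic flux, differed by 0.67 on the log2 scale (SE 0.24, adjusted p = 0.025) without TGF-β1 and by 0.24 (SE 0.24, adjusted p = 0.429) with it. The TIGAR call was lost without con replicate 1 (0.69), con replicate 2 (0.67), con replicate 3 (0.64) or SiNAT10 replicate 3 (0.58), and another gene overlaps 42.6% of its exon bases on the same strand. FDXR, the mitochondrial ferredoxin reductase, fell by 0.37 in both comparisons (SE 0.10 and 0.11), and with the GC trend removed it stood at 0.10 and 0.09 and did not pass. TP53I3 (ENSG00000115129; chromosome 2, 24077433 to 24085861), the quinone oxidoreductase PIG3, was at 12.5, 12.5 and 11.2 CPM in SiNAT10 and at 12.6, 15.7 and 14.7 CPM in con. With TGF-β1 it was at 27.2, 27.4 and 27.4 CPM in SiNAT10_TGFB and at 36.3, 33.2 and 32.1 CPM in TGFB. The siRNA groups lay lower, narrowly so without TGF-β1, with log2 fold changes of -0.25 (SE 0.099, adjusted p = 0.0404) and -0.31 (SE 0.092, adjusted p = 0.00644). The first was lost without con replicate 2 (-0.18) or 3 (-0.23), or SiNAT10 replicate 2 (-0.28) or 3 (-0.20), and with the GC trend removed the values were 0.07 and 0.00.

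In the remaining group, GDF15, RPS27L and BLOC1S2 rose and TP53I11 fell in both siRNA comparisons. GDF15 (ENSG00000130513; chromosome 19, 18374731 to 18389176), a secreted stress cytokine of the TGF-β superfamily, had the largest fold change of the 35 genes in both. It was at 7.69, 7.28 and 6.87 CPM in SiNAT10 and at 0.697, 0.267 and 0.375 CPM in con. Under TGF-β1 it was at 5.66, 5.18 and 4.60 CPM in SiNAT10_TGFB and at 0.154, 0.280 and 0.405 CPM in TGFB. The siRNA libraries held 127 to 224 counts and the others 5 to 24, with no overlap between them. It rose 15.9-fold (log2 3.99, SE 0.27, adjusted p = 2.33e-11) and 18.3-fold (log2 4.2, SE 0.30, adjusted p = 4.18e-11).

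TP53I11 (ENSG00000175274; chromosome 11, 44885903 to 44951306), also called PIG11, showed the largest fall of the 35 genes. It was at 21.8, 18.8 and 15 CPM in SiNAT10 and at 62, 68.5 and 65.2 CPM in con, and at 25.8, 20.3 and 20.8 CPM in SiNAT10_TGFB, against 70.2, 66.4 and 76.2 CPM in TGFB. Its level was at most 25.8 CPM in siRNA libraries and at least 62 CPM in the others. The log2 fold changes were -1.81 (SE 0.11, adjusted p = 2.93e-12) and -1.67 (SE 0.11, adjusted p = 7.69e-12). RPS27L, a ribosomal protein S27 paralogue, rose by 0.36 (SE 0.092) and 0.52 (SE 0.093), and its SiNAT10 and con libraries overlapped. BLOC1S2, a subunit of the lysosomal complexes BLOC-1 and BORC, rose by 0.62 (SE 0.11) and 0.38 (SE 0.11). Its libraries in SiNAT10_TGFB and TGFB overlapped, and its second call was lost without TGFB replicate 3 (0.28) and with the GC trend removed (0.19, adjusted p = 0.0684).

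Differences between siRNA and other libraries tracked GC content across the transcriptome. Over 13039 genes, the Spearman correlation of log2 fold change with GC content of the longest transcript was -0.332 in SiNAT10 over con and -0.35 in SiNAT10_TGFB over TGFB, as a description across genes that share libraries. A GC trend was then removed from each library. In SiNAT10 against con, 25 of the 35 genes (SPATA18 included) were higher and 4 lower, where 24.9% and 29.4% of all tested genes were. In SiNAT10_TGFB against TGFB, 23 were higher and 4 lower, where 26% and 27.9% of all tested genes were. The median of the 35 genes was then 0.49 and 0.50. CDKN1A (2.07 and 1.87), GDF15 (4.47 and 4.69), BBC3 (1.16 and 1.26) and PMAIP1 (1.07 and 1.41) rose, and TP53I11 (-1.44 and -1.29), PLK2 (-0.75 and -0.52) and DDB2 (-0.29 and -0.53) fell. The falls of BAX, FDXR and TP53I3 were not called with the trend removed. Among the rises, CCNG1 was not called in either comparison, TIGAR (0.49, adjusted p = 0.0915) and ACER2 (0.56, adjusted p = 0.111) were not called in SiNAT10 against con, and BLOC1S2 was not called in SiNAT10_TGFB against TGFB. PHLDA3 fell in neither and rose in SiNAT10 against con (0.29, adjusted p = 0.000921). Scaling to library size alone also left 4 falls in SiNAT10_TGFB against TGFB, beside 25 rises. Higher calls then made up 86.2% of the calls among the 35 genes instead of 78.1%. Over all tested genes they made up 61.3% instead of 49.6%, and the median of all genes was 0.14.

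**Figure D3:**
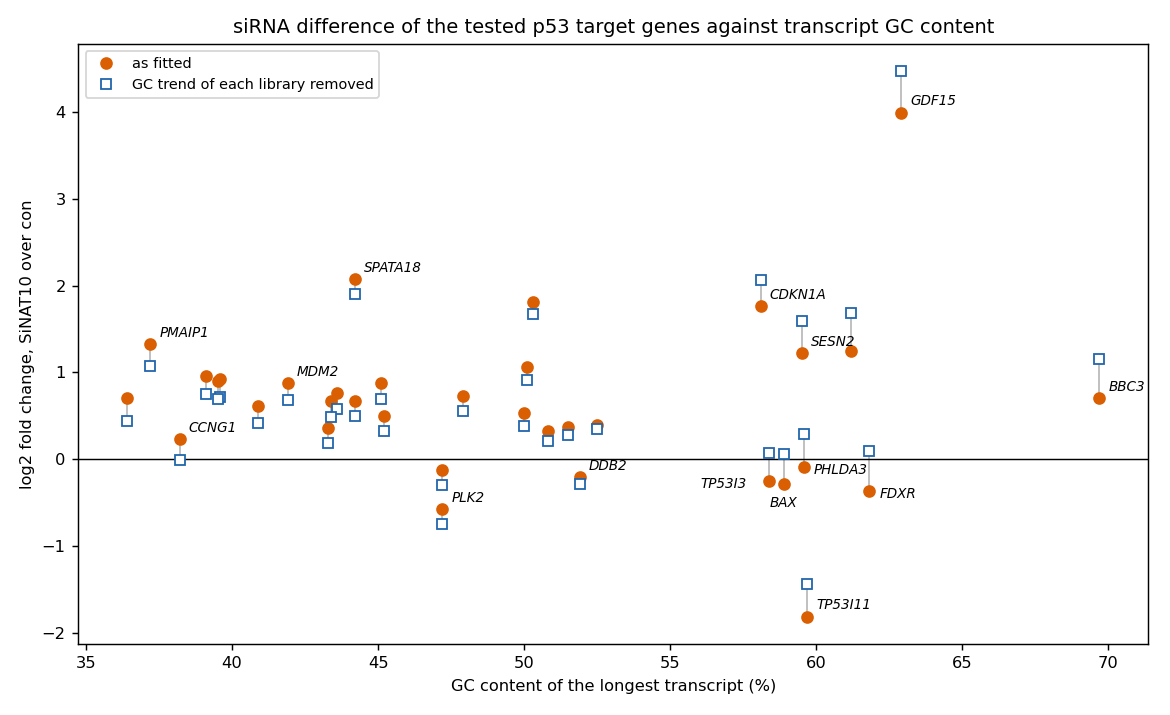
Log2 fold change of the tested p53 target genes in SiNAT10 over con (y axis) against GC content of the longest transcript in percent (x axis), as fitted (filled circles) and with the GC trend removed from each library (open squares), joined by lines. GDF15 and TP53I11 keep their places far from 0, while BAX, FDXR and TP53I3 move from below 0 to 0.06, 0.10 and 0.07.

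The same genes were then compared between libraries with and without TGF-β1. In TGFB against con, 4 of the 35 genes rose (11.4%) and 6 fell (17.1%), where 11.9% of all tested genes rose and 12.2% fell. In SiNAT10_TGFB against SiNAT10, 3 rose (8.57%) and 4 fell (11.4%), where 5.92% of all tested genes rose and 5.15% fell. The medians were -0.11 and -0.07, against -0.01 and 0.00 for all tested genes. With scaling to library size alone, 3 rose and 14 fell in TGFB against con, where 7.6% and 24.9% of all tested genes did, so higher calls made up 17.6% of calls instead of 40%, and 23.4% instead of 49.5% over all tested genes. That scaling put the median of all genes at -0.14. Under the same scaling 1 rose and 5 fell in SiNAT10_TGFB against SiNAT10, where 4.72% and 8.14% of all tested genes did, so higher calls made up 16.7% instead of 42.9%, and 36.7% instead of 53.5% over all tested genes. With the GC trend removed, 4 rose and 12 fell in TGFB against con, where 13.5% and 16.9% of all tested genes did, so that higher calls made up 25% of the calls among the 35 genes, through more falls and as many rises, and 44.5% of those among all tested genes instead of 49.5%. These TGF-β1 comparisons share no library with each other, but TGFB against con shares the con libraries with SiNAT10 against con, and the TGFB libraries with SiNAT10_TGFB against TGFB.

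TP53I3 and EDA2R moved most with TGF-β1. TP53I3 was at 33.9 ± 2.16 CPM in TGFB and 14.3 ± 1.58 CPM in con (SD, n = 3 each), or 1.24 on the log2 scale (SE 0.095, adjusted p = 4.6e-10). With siRNA it was at 27.3 ± 0.101 CPM in SiNAT10_TGFB and 12.1 ± 0.734 CPM in SiNAT10, or 1.18 on the log2 scale (SE 0.098, adjusted p = 4.37e-09). The lowest library with TGF-β1 stood well above the highest without it. EDA2R was at 8.53 ± 0.636 CPM in TGFB and 20.7 ± 0.852 CPM in con, or -1.28 on the log2 scale (SE 0.10, adjusted p = 7.82e-10), and at 17.5 ± 1.02 CPM in SiNAT10_TGFB and 29.2 ± 2.45 CPM in SiNAT10, or -0.74 on the log2 scale (SE 0.095, adjusted p = 4.59e-06). Neither pair of groups overlapped.

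The other genes that changed in both TGF-β1 comparisons were PLK3 and BLOC1S2, which rose, and PLK2 and MDM2, which fell. PLK3 rose by 0.86 (SE 0.10, adjusted p = 6.08e-07) in TGFB over con and by 0.33 (SE 0.096, adjusted p = 0.0276) in SiNAT10_TGFB over SiNAT10. The second PLK3 call was lost without SiNAT10 replicate 2 (0.33), SiNAT10 replicate 3 (0.27), SiNAT10_TGFB replicate 1 (0.32) or SiNAT10_TGFB replicate 2 (0.31). BLOC1S2 rose by 0.61 (SE 0.11) and 0.37 (SE 0.11, adjusted p = 0.0319). Its second call was lost without SiNAT10 replicate 1 (0.30), SiNAT10 replicate 2 (0.36), SiNAT10_TGFB replicate 2 (0.35) or SiNAT10_TGFB replicate 3 (0.28). PLK2 fell by 0.56 and 0.37 (SE 0.050 each), and MDM2 fell by 0.37 (SE 0.080, adjusted p = 0.00126) and 0.38 (SE 0.078, adjusted p = 0.00144).

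In TGFB against con, DDB2 also rose, by 0.28 (SE 0.077, adjusted p = 0.0104), and TP53INP1 fell by 0.66 (SE 0.13, adjusted p = 0.000437), PMAIP1 by 0.23 (SE 0.083, adjusted p = 0.0431) and RPS27L by 0.27 (SE 0.093, adjusted p = 0.0345). The DDB2 call was lost without TGFB replicate 1 (0.24) and with scaling to library size alone (0.14). PMAIP1 did not pass without con replicate 1 (-0.18), con replicate 3 (-0.25), TGFB replicate 1 (-0.22), TGFB replicate 3 (-0.20), SiNAT10 replicate 2 (-0.23) or SiNAT10_TGFB replicate 2 (-0.23). RPS27L did not pass without con replicate 1 (-0.18), con replicate 3 (-0.28), TGFB replicate 1 (-0.27) or TGFB replicate 3 (-0.26). In SiNAT10_TGFB against SiNAT10, FAS fell by 0.46 (SE 0.11, adjusted p = 0.00581), a call lost without SiNAT10 replicate 2 (-0.40). CDKN1A did not pass in either comparison, at 0.13 (SE 0.062, adjusted p = 0.149) and -0.07 (SE 0.060, adjusted p = 0.607). GDF15 did not pass either, at -0.70 (SE 0.39, adjusted p = 0.208) and -0.50 (SE 0.21, adjusted p = 0.154).

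**Figure D4:**
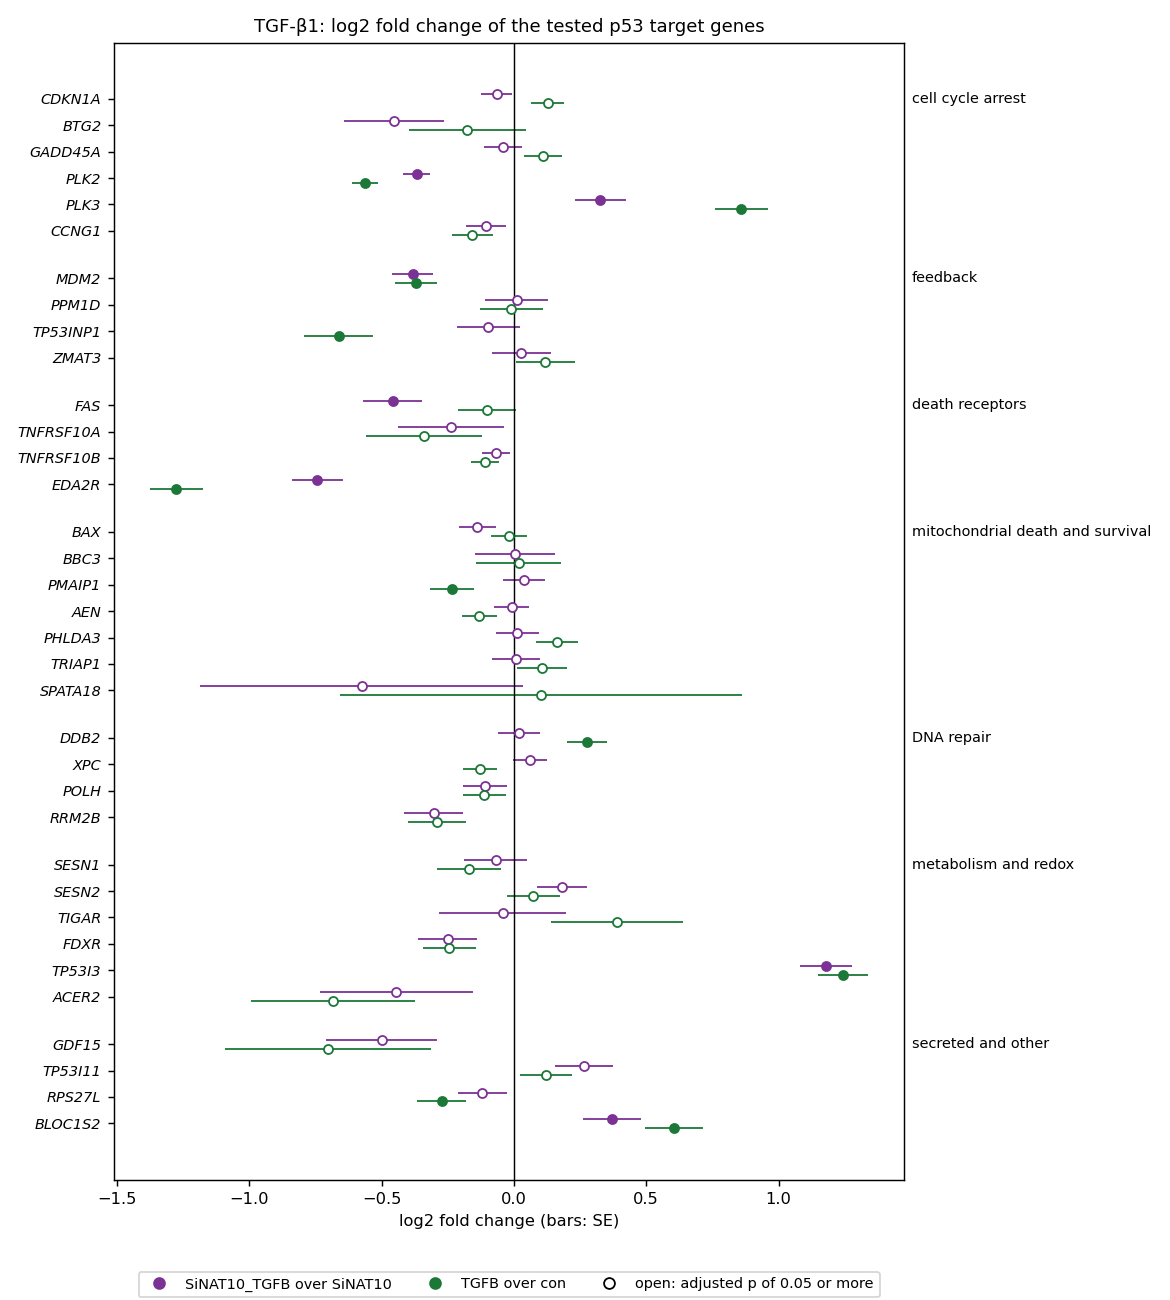
Log2 fold changes of the 35 tested p53 target genes with TGF-β1 (x axis, points with SE bars), ordered by role from top to bottom, for SiNAT10_TGFB over SiNAT10 and TGFB over con, 3 libraries per group. Most points are open, for an adjusted p of 0.05 or more; TP53I3 lies farthest right at 1.18 and 1.24 and EDA2R farthest left at -0.74 and -1.28.

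Whether the siRNA difference depended on TGF-β1 was tested by the interaction, the siRNA difference with TGF-β1 minus that without it. It passed for 1 gene upward and 1 downward among the 35, where 1.94% and 1.91% of all tested genes passed. EDA2R had an interaction of 0.53 (SE 0.14, adjusted p = 0.0271), since its siRNA difference was 1.03 with TGF-β1 and 0.50 without. PLK3 had an interaction of -0.53 (SE 0.14, adjusted p = 0.0291), from siRNA differences of 0.71 with TGF-β1 and 1.24 without. For CDKN1A the interaction was -0.19 (SE 0.086, adjusted p = 0.271), and for GDF15 it was 0.20 (SE 0.43, adjusted p = 0.885). The EDA2R call was lost without con replicate 1 (0.51), con replicate 2 (0.53), TGFB replicate 1 (0.54), TGFB replicate 3 (0.49), SiNAT10 replicate 2 (0.50) or SiNAT10_TGFB replicate 1 (0.48). PLK3 lost its call on leaving out any of 9 libraries: con replicate 1 (-0.44) or 3 (-0.54), TGFB replicate 1 (-0.50) or 3 (-0.53), SiNAT10 replicate 1 (-0.47) or 2 (-0.53), and SiNAT10_TGFB replicate 1 (-0.54), 2 (-0.55) or 3 (-0.50). It also lost it with scaling to library size alone (-0.46, adjusted p = 0.0548). PMAIP1, at 0.27 (adjusted p = 0.239), passed without SiNAT10 replicate 3 (0.37, adjusted p = 0.0285).

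MDM4, the p53 inhibitor related to MDM2, did not pass in SiNAT10 against con (0.08, adjusted p = 0.446) and rose by 0.42 (SE 0.087, adjusted p = 0.000311) in SiNAT10_TGFB against TGFB. It fell by 0.33 (SE 0.087, adjusted p = 0.00697) in TGFB against con. The amount and activity of the p53 protein are not measured by these data.

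Of 25 tested regulators of p53, 7 rose and 9 fell in SiNAT10 against con, and 9 rose and 7 fell in SiNAT10_TGFB against TGFB. These are 28% and 36% of the 25 in the first comparison and 36% and 28% in the second, not far from the 26.4% and 26.4%, and 26.3% and 26.8%, of all tested genes. HIPK2, a kinase that phosphorylates p53, fell by 1.13 (SE 0.071) and 1.23 (SE 0.071), to 125 ± 10 CPM in SiNAT10, against 273 ± 11.7 CPM in con (SD, n = 3). RCHY1, the p53 ubiquitin ligase PIRH2, rose by 1.16 (SE 0.13) and 1.18 (SE 0.13), and TP53RK, a kinase of the KEOPS complex, by 0.68 (SE 0.077) and 0.62 (SE 0.076). TP73, a p53 family member, fell by 0.94 (SE 0.11) in SiNAT10 against con. With TGF-β1, 3 of these regulators rose and 5 fell in TGFB against con, and 1 rose and 1 fell in SiNAT10_TGFB against SiNAT10. Those shares were 12% and 20%, against 11.9% and 12.2% of all tested genes, and 4% and 4%, against 5.92% and 5.15%. PPP1R13L, the p53 inhibitor iASPP, rose by 0.92 (SE 0.12) and 0.73 (SE 0.13) in these TGF-β1 comparisons.

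Among 58 other tested p53 targets, 25 rose (43.1%) and 11 fell (19%) in SiNAT10 against con, with a median of 0.18. In SiNAT10_TGFB against TGFB, 25 rose (43.1%) and 15 fell (25.9%), with a median of 0.17. Of all tested genes, 26.4% rose and 26.4% fell in the first of these comparisons and 26.3% and 26.8% in the second. E2F7, a repressor of E2F-driven transcription, rose by 1.11 (SE 0.064) and 1.31 (SE 0.064), and BTG1, a relative of BTG2, by 1.15 (SE 0.073) and 1.57 (SE 0.075). SERTAD1 rose to 85.8 ± 6.66 CPM in SiNAT10, against 32 ± 2.87 CPM in con (SD, n = 3; log2 1.42, SE 0.085). LIF, an interleukin-6 family cytokine, was at 35.6 ± 5.03 CPM in SiNAT10_TGFB and 128 ± 3.89 CPM in TGFB, a log2 fold change of -1.84 (SE 0.090), and it rose by 2.10 (SE 0.091) in TGFB against con. Without TGF-β1 its siRNA difference did not pass (-0.15, adjusted p = 0.189), and its interaction was -1.70 (SE 0.13, adjusted p = 1.02e-08). In TGFB against con, 9 of the 58 rose (15.5%) and 15 fell (25.9%), where 11.9% and 12.2% of all tested genes did. In SiNAT10_TGFB against SiNAT10, 4 rose (6.9%) and 7 fell (12.1%), where 5.92% and 5.15% of all tested genes did.

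Genes of the cell cycle that are repressed downstream of p21 through the DREAM complex mostly fell with siRNA. Of 20 tested, 1 rose (5%) and 16 fell (80%) in SiNAT10 against con, with a median of -0.62, and as many did in SiNAT10_TGFB against TGFB, with a median of -0.62. Of all tested genes, 26.4% rose and 26.4% fell in the first comparison and 26.3% and 26.8% in the second. CCNA2, cyclin A2, was at 39.2 ± 4.39 CPM in SiNAT10 and 185 ± 6.31 CPM in con (SD, n = 3), a log2 fold change of -2.24 (SE 0.072). It was at 35.1 ± 1.17 CPM in SiNAT10_TGFB and 189 ± 5.7 CPM in TGFB (-2.43, SE 0.073). PLK1, the mitotic polo-like kinase, fell by 1.74 (SE 0.077) and 1.92 (SE 0.078), CDC20, the activator of the anaphase-promoting complex, by 1.38 (SE 0.074) and 1.44 (SE 0.075), and CCNB1, cyclin B1, by 1.11 (SE 0.057) and 1.08 (SE 0.057). The gene that rose in both was CDC25A, a phosphatase that activates cyclin-dependent kinases (0.88 and 0.97), named after its values were seen. Among the 20, 1 rose (5%) and 5 fell (25%) in TGFB against con, where 11.9% and 12.2% of all tested genes did. None rose and 2 fell (10%) in SiNAT10_TGFB against SiNAT10, where 5.92% and 5.15% of all tested genes did.

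**Figure D5:**
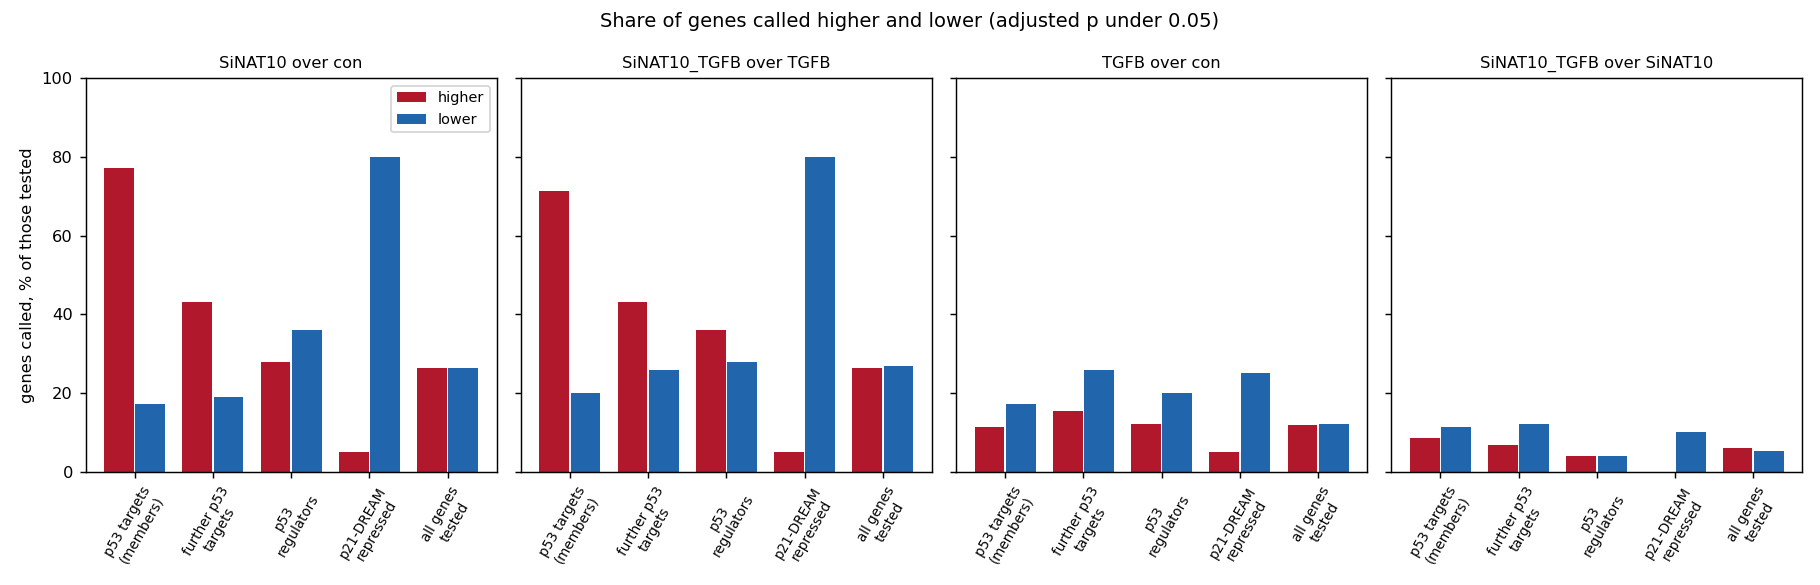
Share of tested genes that rose (red) and fell (blue) at an adjusted p under 0.05 (y axis, percent) in the p53 target genes, other p53 targets, p53 regulators, p21-DREAM repressed genes and all tested genes, in 4 comparisons (panels). With siRNA, 77.1% and 71.4% of the p53 target genes rose, against 26.4% and 26.3% of all tested genes. The 77.1% includes SPATA18, which passed the count filter only through the siRNA libraries. Without it, 26 of 34 genes rose in SiNAT10 against con. In both siRNA panels 80% of the p21-DREAM genes fell, and the TGF-β1 panels stay at or below 25.9%.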

How the data were processed

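Gene counts and FPKM of 58735 genes in the 12 libraries are the values deposited by the authors. Per the submitters' processing notes, fastp and HISAT2 2.2.1 were the tools and hg38 the genome build; the sources used here do not give the counting tool, annotation or strand setting. The deposited FPKM matched counts divided by length and depth, apart from a constant of 0.933 to 1.09 for each library, and serve only to compare levels between genes. All IDs had the same positions in GENCODE release 29, from which coordinates and exon overlaps were taken.

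Counts were fitted with edgeR 4.0.16 in R 4.3.3: filterByExpr (18560 genes), TMM scaling, 1 quasi-likelihood fit of 4 group means, 4 pairwise contrasts and the interaction. An SE is the absolute log2 fold change divided by the square root of F. A gene with 3 counts had 0.0871 to 0.115 CPM, so lower levels are imprecise. The GC alternative removed a spline of 5 degrees of freedom on the GC content of the longest transcript from each library. Other alternatives were other scalings, no count filter, DESeq2 1.42.0, a replicate block, fitting only the groups compared, an adjusted p under 0.01 and leaving out each library. The fit was tested on simulated data in which far fewer genes differed than here. For SiNAT10 against con it recovered 24% of log2 differences of 0.5 and 58.7% of those of 1. For the interaction it recovered 32.7% and 66%. The cutoff that the adjustment sets depends on how many genes differ, so these shares do not carry over to the data. How many real differences of these sizes were missed here is not known. No 2 libraries of a group were duplicates. SiNAT10 replicates 1 and 3 differed most, with a chi-square per gene of 20.5, against 4.15 to 9.98 for the other pairs within a group. Without SiNAT10 replicate 3, the median of the 35 genes in SiNAT10 over con was 0.58 instead of 0.67.

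The genes and the other lists were chosen with earlier results of these data known. Values in every library are given for genes called with an absolute log2 fold change of at least 1 in a pairwise contrast, and for CDKN1A, MDM2, BAX, BBC3, PMAIP1, FAS and GDF15. PLK2 and DDB2 were added after their values were seen. In the other lists, MDM4 was always named and otherwise up to 4 genes a comparison, by smallest p. Some results are not reported here.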

Additional observations from a re-analysis of the deposited data

Results flagged for a closer look

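Of the 35 genes, 1 passed upward and 1 downward in the interaction test of whether the siRNA difference depended on TGF-β1 (edgeR quasi-likelihood test, adjusted over all tested genes), near the 1.94% and 1.91% of all tested genes that did. For EDA2R the siRNA difference with TGF-β1 exceeded that without it by 0.53 on the log2 scale (adjusted p = 0.0271). For PLK3 it was smaller with TGF-β1, by an interaction of -0.53 (adjusted p = 0.0291). EDA2R did not pass in 6 of the 12 fits that left out 1 library, and PLK3 did not pass in 9 of them, with scaling to library size alone or with a replicate block (adjusted p = 0.0548 and 0.0531).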

How the results depend on the processing

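In SiNAT10 against con, 23 of 27 rises and 2 of 6 falls (PLK2, TP53I11) passed in the same direction under every alternative tried. SPATA18 is among the 27 but not the 23, and it is counted in later numbers of these rises wherever it passed. In SiNAT10_TGFB against TGFB, 21 of 25 rises and 3 of 7 falls passed in the same direction under every alternative. The share of all tested genes kept in this way is not given here, so these counts cannot be called particular to these genes. With TGF-β1, 3 of 4 rises and 4 of 6 falls did so in TGFB against con, and 1 of 3 and 3 of 4 in SiNAT10_TGFB against SiNAT10, while neither interaction did. With the GC trend removed, the direction changed for CCNG1 (-0.008), BAX (0.063), PHLDA3 (0.286), FDXR (0.098) and TP53I3 (0.073) in SiNAT10 over con, and for PHLDA3 (0.135), FDXR (0.094) and TP53I3 (0.003) in SiNAT10_TGFB over TGFB. The GC alternative gave 12 falls in TGFB against con, 4 falls in SiNAT10_TGFB against TGFB, 4 upward interactions, and 1439 interactions over all genes in place of 714. Scaling to library size alone gave 14 falls in TGFB against con, 4 falls in SiNAT10_TGFB against TGFB, 1 rise in SiNAT10_TGFB against SiNAT10, 3 upward interactions and 0 downward ones, and moved the median of all genes to -0.14 in TGFB over con and 0.14 in SiNAT10_TGFB over TGFB. DESeq2 gave 2 upward interactions. At an adjusted p under 0.01 there were 1 rise and 1302 calls over all genes in SiNAT10_TGFB against SiNAT10, and 0 upward, 0 downward and 383 interactions over all genes. Beyond the alternatives' own construction, the cause of these moves was not tested. Leaving out 1 library gave 1 to 3 rises in SiNAT10_TGFB against SiNAT10, 0 to 3 upward interactions and 0 to 1 downward, 24 to 27 rises and 4 to 6 falls in SiNAT10 against con, 23 to 25 and 6 to 7 in SiNAT10_TGFB against TGFB, and 4 to 8 falls in TGFB against con. Calls over all tested genes then ran from 8740 to 9877 in SiNAT10 against con (9808 with all libraries). They ran from 8938 to 10307 in SiNAT10_TGFB against TGFB (9857) and from 3572 to 5008 in TGFB against con (4472). The ranges were 1556 to 2112 in SiNAT10_TGFB against SiNAT10 (2054) and 513 to 970 for the interaction (714). Same-numbered libraries did not deviate together (0 of 18 pairs with a correlation over 0.1, from -0.073 to 0.048, and 1 of 12 libraries closest to its own number). These values show no pairing by number but cannot exclude one. A replicate block gave 26 rises and 5 falls in SiNAT10 against con, 25 and 7 in SiNAT10_TGFB against TGFB, 4 and 4 in TGFB against con, 2 and 4 in SiNAT10_TGFB against SiNAT10, and 1 upward and 0 downward interactions. Over all tested genes that block gave 9459, 9579, 4113 and 1806 calls in the same order, and 591 interactions. Depth limits SPATA18 and TNFRSF10C, whose libraries hold at most 27 and 6 counts.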
